A study of Mus musculus with 8 samples.

Results

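The ID proteins and the feedback genes of TGF-beta and BMP signalling were followed in mouse macrophages before and after lipopolysaccharide (LPS), the bacterial cell wall component sensed by TLR4. The 9 genes are Id1, Id2, Id3, Smad6, Smad7, Skil, Tgfb1, Tgfbr1 and Tgfbr2, of 43346 genes in the deposited count table. They were listed by name, and the set was chosen by the lower Id1 level after LPS in these libraries. The values of Id1 are therefore a description, with no test in any comparison, and member counts cover the other 8. Poly(A) RNA was sequenced as single 50-base reads in 3 cell types, each unstimulated (0 h) and 3 h after LPS. Bone marrow-derived macrophages (BMDM), grown in medium conditioned by L929 cells, had 2 libraries at 0 h and 2 at 3 h. RAW 264.7 (RAW), an immortal mouse macrophage line, and the cells labelled hMPDM had 1 library per state, which makes 6 groups and 8 libraries. The labels name no mouse strain and no LPS dose, do not spell out hMPDM, and leave unsaid whether each BMDM library had its own culture. The p-values therefore rest on a spread between libraries that may be technical.

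TGF-beta and BMP ligands bind paired serine/threonine kinase receptors, which phosphorylate receptor SMADs. These enter the nucleus with SMAD4 and switch target genes on or off. The ID genes are classical BMP targets: their products lack a DNA-binding region, pair with E proteins such as TCF3 and keep them off DNA. Smad6, Smad7 and Skil are induced by the pathway and restrain it, the inhibitory SMADs at the receptor and SKIL, the SnoN co-repressor, in the nucleus. In macrophages TGF-beta is known for damping inflammatory gene expression, and Id2 is known for its role in the development of innate lymphoid and dendritic cells.

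Library totals ran from 3116434 (RAW at 0 h) to 19307312 counts (BMDM at 0 h). Levels below are TMM-scaled CPM, and a difference is a log2 ratio from an edgeR quasi-likelihood fit with its SE. The SE is the difference divided by the square root of the fit's F statistic. Beside hMPDM or RAW the fit assumes that the single library varies as the BMDM pairs do. The LPS response was present in every cell type. The cytokine gene Tnf went from 48.8 ± 1.70 to 2782 ± 89.1 CPM in BMDM (SD, n = 2), from 32.1 to 1571 CPM in hMPDM and from 52.1 to 796 CPM in RAW. Cxcl10, a chemokine gene, reached 7286 and 7140.4 CPM in BMDM, 5305 CPM in hMPDM and 69.1 CPM in RAW. The 10 macrophage markers summed to between 14658 and 19607 CPM in all libraries, with Csf1r, the CSF1 receptor, at 1296 CPM or more in each. Lyz2 made up most of each sum, and single markers were not alike between cell types. At 0 h Mertk (21.5 CPM against 105 and 109 CPM), Adgre1, Itgam and Cd68 were lower in RAW than in BMDM. Spi1 was nearly level, at 237 CPM in RAW and 241 and 256 CPM in BMDM. Csf1r, Lyz2, Cd14, Fcgr1 and Aif1 were higher in RAW. Of 7 endothelial markers, which matter because endothelium is rich in ID and SMAD6 transcripts, Emcn and Cldn5 had no count in any library and Kdr made up nearly all of the sum. That sum was 92.6 and 94.1 CPM in BMDM at 0 h, 65.9 and 72.7 CPM after LPS, 63.3 and 109.7 CPM in hMPDM, and 1.83 and 1.28 CPM in RAW, and its part in the differences below was not tested. Of 6 T and NK cell markers, 5 had no count in any library, and Cd4 stood between 9.50 and 10.9 CPM in BMDM, at 2.34 and 3.27 CPM in hMPDM and at 0 in RAW. The 6 neutrophil markers summed to between 19.1 and 26.0 CPM in BMDM, 6.13 and 7.85 CPM in hMPDM, and 0.523 and 0.214 CPM in RAW. The fibroblast, B cell, mast cell, dendritic cell and erythroid lists each summed to at most 3.02 CPM in any library. In the hMPDM LPS library, 16 genes that were near absent from unstimulated hMPDM summed to 10.8% of their BMDM LPS level. At 0 h, where they were picked for being low, they summed to 1.35% of the BMDM level. The share was not the same for each gene: Gdf3, which meets that rule, had 1 count (0.218 CPM) in hMPDM after LPS, beside 14.7 and 15.3 CPM in BMDM. Where the 10.8% comes from was not tested. As an alternative, values of hMPDM after LPS are also given, where they changed a call, with that share of BMDM counts taken out.

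Id1 encodes the ID protein most closely tied to BMP signalling. The gene lies on chromosome 2 (152736251 to 152737410, plus strand, mm10; ENSMUSG00000042745.9). Its level was 41.1 and 47.4 CPM in BMDM at 0 h and 4.53 and 4.90 CPM after LPS. In hMPDM it was 25.1 CPM at 0 h and 2.40 CPM after LPS, and in RAW 11.0 and 9.63 CPM. The BMDM states did not overlap, hMPDM had the lowest value of all after LPS, and RAW was nearly level. The difference was 9.29-fold lower in BMDM (log2 -3.22, SE 0.123). In hMPDM, with 418 counts at 0 h and 11 after LPS, the ratio was 10.5-fold lower (5.79 to 21.1, exact 95% interval of the counts). In RAW, with 42 and 45 counts, it was 1.14-fold lower, and the interval from 0.731 to 1.78 spans no difference. Such intervals cover counting error only: reads that carry no molecular identifier are not separate molecules. In bulk RNA, fewer cells with a transcript and less transcript per cell cannot be told apart.

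The levels of Id1 also differed between cell types, and since the same libraries chose the set, these differences are given without a test. At 0 h Id1 was 1.77-fold lower in hMPDM than in BMDM (log2 -0.82, SE 0.0897) and 4.04-fold lower in RAW (log2 -2.02, SE 0.192). After LPS the RAW value lay above both BMDM values, 2.01-fold higher than BMDM (log2 1.01, SE 0.288). The hMPDM value lay 1.98-fold below BMDM after LPS (log2 -0.99, SE 0.438), at 11 counts against 30 and 62.

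Id2 was the most abundant of the ID genes and fell in BMDM. It lies on chromosome 12 (25093801 to 25096092, minus strand, mm10). Its level was 737 and 766 CPM in BMDM at 0 h and 300.5 and 290.1 CPM after LPS, 433 and 333 CPM in hMPDM, and 153 and 102 CPM in RAW. All 3 cell types were lower after LPS, and the BMDM states lay far apart. The fall in BMDM was 2.55-fold (log2 -1.35, SE 0.0378, edgeR adjusted p = 1.69e-23), and it exceeded 2-fold in the stricter edgeR test (glmTreat, adjusted p = 4.11e-10). The untested ratios were 1.30-fold lower in hMPDM (1.23 to 1.38) and 1.51-fold lower in RAW (1.33 to 1.70).

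Id3 did not pass the test in BMDM. It lies on chromosome 4 (136143497 to 136145755, plus strand, mm10). Its level was 82.7 and 77.2 CPM in BMDM at 0 h and 66.0 and 78.7 CPM after LPS, so the states overlapped (log2 -0.11, SE 0.0623, edgeR adjusted p = 0.121). Without BMDM LPS replicate 2 it was lower (log2 -0.27, adjusted p = 0.00268), and also without unstimulated replicate 2 (log2 -0.17, adjusted p = 0.0402). With library-size scaling, which moves the median of all genes by -0.37 in this comparison, it was lower too (log2 -0.48, adjusted p = 8.33e-09). In hMPDM Id3 went from 63.7 to 31.9 CPM, 2.00-fold lower (1.68 to 2.39). In RAW it went from 46.8 to 56.3 CPM, a ratio of 1.20 (0.990 to 1.46).

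**Figure D1:**
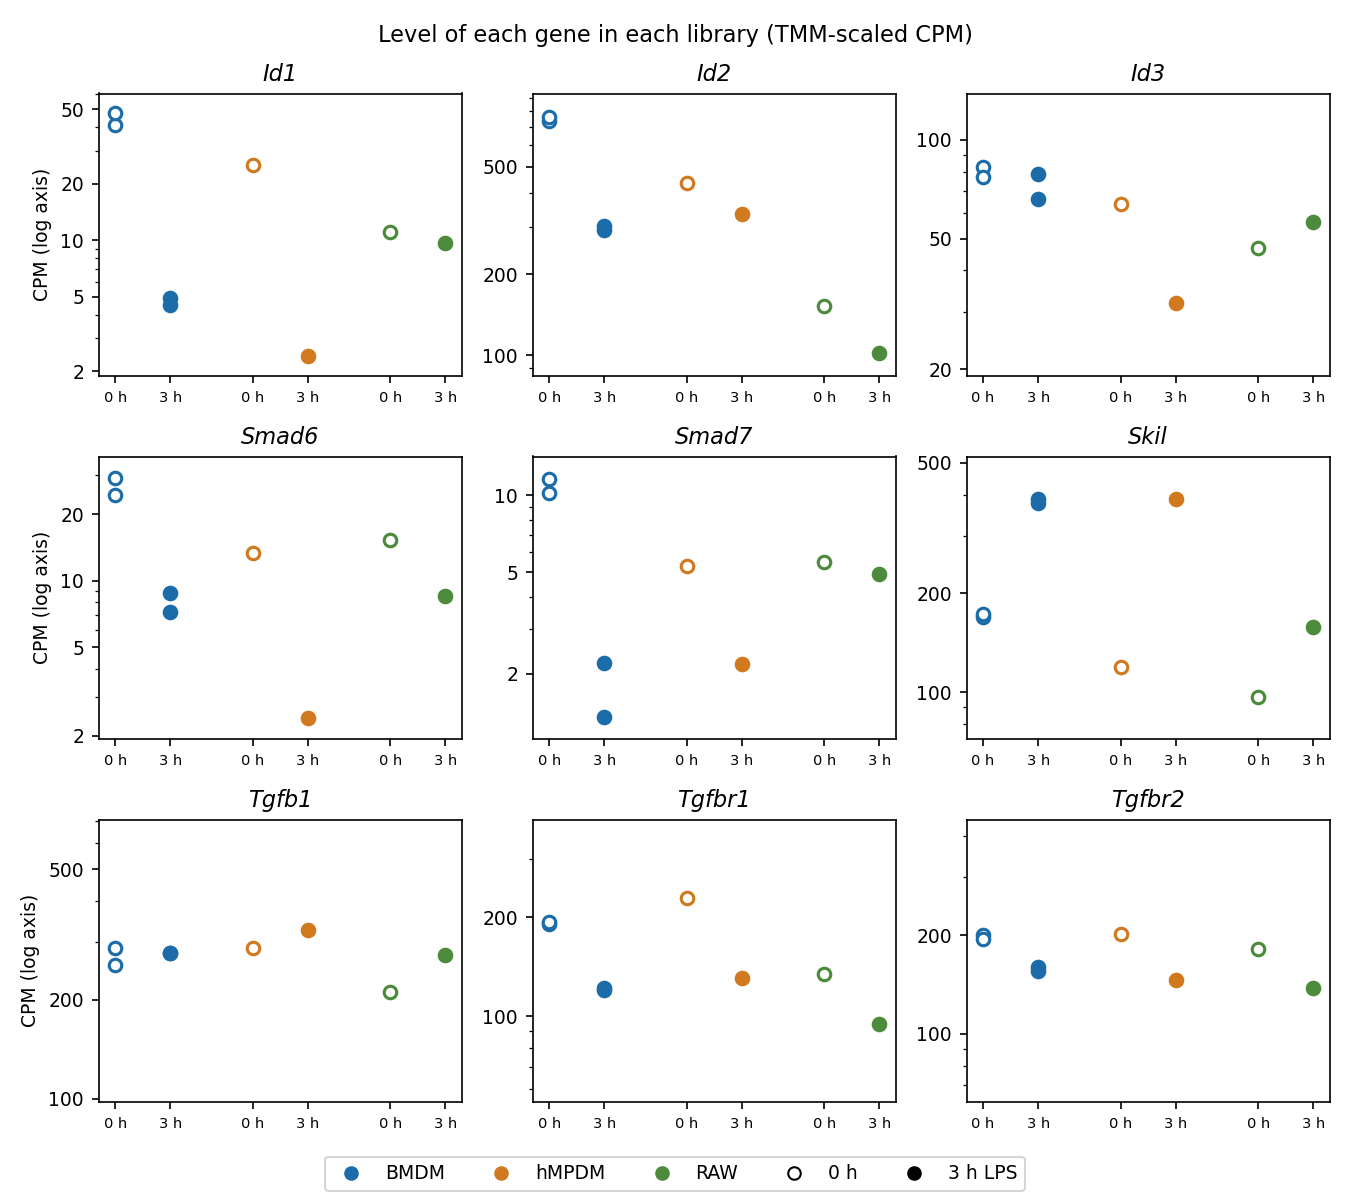
Level of each of the 9 genes in each library (TMM-scaled CPM, log axis); open points are 0 h, filled points 3 h LPS, and BMDM has 2 points per state. Id1 and Smad6 drop by several fold in BMDM and hMPDM, and Smad7 does so in BMDM, with a 2.42-fold lower value in hMPDM. Skil is higher after LPS in all 3 cell types, and Tgfb1 stays between 211 and 327 CPM.

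The promoters of Id2 and Smad6, which fell in BMDM, and of Id3, which did not pass, are shown for comparison. RefSeq windows from 250 bases before to 50 bases after a transcription start (GRCm38.p6) were matched by symbol for 6 of the 9 genes. They are printed 5′ to 3′ on the gene's strand, with capitals for GGCGCC, the GC element found in BMP-responsive enhancers, and for CAGAC, the SMAD box, on either strand.
Id2, chr12:25096043-25096342, minus strand: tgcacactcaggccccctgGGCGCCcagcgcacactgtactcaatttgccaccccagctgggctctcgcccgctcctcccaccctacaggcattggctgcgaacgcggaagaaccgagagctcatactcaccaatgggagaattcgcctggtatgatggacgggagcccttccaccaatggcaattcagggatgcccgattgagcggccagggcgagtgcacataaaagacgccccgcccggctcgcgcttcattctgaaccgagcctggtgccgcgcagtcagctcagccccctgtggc
Id3, chr4:136143572-136143871, plus strand: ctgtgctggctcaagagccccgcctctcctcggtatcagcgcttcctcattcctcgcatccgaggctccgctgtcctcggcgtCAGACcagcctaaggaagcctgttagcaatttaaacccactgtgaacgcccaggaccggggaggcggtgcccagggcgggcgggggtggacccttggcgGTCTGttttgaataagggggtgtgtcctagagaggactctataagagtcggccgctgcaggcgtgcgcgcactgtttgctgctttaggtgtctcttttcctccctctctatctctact
Smad6, chr9:64022010-64022309, minus strand: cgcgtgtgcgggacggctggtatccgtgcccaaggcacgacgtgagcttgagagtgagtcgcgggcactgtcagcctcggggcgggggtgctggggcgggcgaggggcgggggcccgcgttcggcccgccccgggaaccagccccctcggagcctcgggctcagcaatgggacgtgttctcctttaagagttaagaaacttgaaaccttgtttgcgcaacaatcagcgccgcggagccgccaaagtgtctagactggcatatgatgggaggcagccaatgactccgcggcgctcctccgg
Id2 held 1 GGCGCC, whose first base lies at -231 from the start, and no CAGAC. Id3 held CAGAC at -167 and at -68 and no GGCGCC, and Smad6 held neither of these exact strings. Other forms of a SMAD site were not searched. The Smad6 window does hold GTCTAGAC, which reads AGAC on each strand and is not counted as CAGAC. The Id3 window lies wholly within the Id3 span given above, so its RefSeq start is downstream of that span's first base. The Id2 and Smad6 windows reach beyond the spans of their genes. Of all 32851 windows, 11.9% held GGCGCC and 49.6% held CAGAC. The E-box CANNTG was matched in Id2 (-196) and Smad6 (at 7 after the start) and in 72.3% of all windows. An NF-kB-like motif (GGG, any 5 bases, CC) was matched 4 times in Id3 and 1 time in Smad6, and in 50.8% of all windows. Neither the AP-1 motif TGANTCA (7.81% of windows) nor the consensus CRE (1.79%) was matched in these 3. A match is a description of letters and not a bound site.

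Both inhibitory SMAD genes fell in BMDM. Smad6, which acts mainly on BMP receptors, lies on chromosome 9 (63953076 to 64022059, minus strand, mm10). Its level was 24.4 and 29.2 CPM in BMDM at 0 h and 8.77 and 7.19 CPM after LPS, 13.3 and 2.40 CPM in hMPDM, and 15.2 and 8.56 CPM in RAW. The BMDM states did not overlap and each other cell type was lower after LPS. The fall was 3.48-fold in BMDM (log2 -1.80, SE 0.124, edgeR adjusted p = 1.14e-13). The ratio was 5.56-fold lower in hMPDM (3.05 to 11.3) and 1.77-fold lower in RAW (1.16 to 2.72), both untested.

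Smad7, which blocks TGF-beta and BMP receptors alike, lies on chromosome 18 (75367529 to 75395935, plus strand, mm10) and had the fewest counts. Its level was 10.2 and 11.6 CPM in BMDM at 0 h and 1.36 and 2.21 CPM after LPS, the latter from 9 and 28 counts. It was 5.29 and 2.18 CPM in hMPDM and 5.49 and 4.92 CPM in RAW. The BMDM states did not overlap, while both RAW values lay between them. The fall in BMDM was 5.68-fold (log2 -2.51, SE 0.202, edgeR adjusted p = 4.26e-12). In hMPDM the ratio was 2.42-fold lower (1.26 to 5.23), and in RAW it was 1.12-fold lower (0.588 to 2.11), from 21 and 23 counts. Both falls in BMDM exceeded 2-fold in the stricter edgeR test (adjusted p = 1.39e-06 for Smad6 and 1.50e-07 for Smad7).

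Skil was the member that rose. It lies on chromosome 3 (31095058 to 31122577, plus strand, mm10). Its level was 169.9 and 173 CPM in BMDM at 0 h and 388 and 376 CPM after LPS, 119 and 388 CPM in hMPDM, and 96.8 and 158 CPM in RAW. Every LPS library lay above the unstimulated libraries of its own cell type. The rise in BMDM was 2.22-fold (log2 1.15, SE 0.0386, edgeR adjusted p = 1.73e-21). The ratio was 3.25 in hMPDM (3.05 to 3.47) and 1.63 in RAW (1.43 to 1.85). The BMDM rise exceeded 2-fold in the stricter edgeR test (adjusted p = 0.000452), and that call ended with library-size scaling, with DESeq2 and with a coefficient of variation of 10%.

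The ligand gene Tgfb1 did not pass in BMDM, and its receptor genes fell there by less than 2-fold. Tgfb1, which encodes TGF-beta 1, stood at 256 and 287 CPM in BMDM at 0 h and at 277 and 277 CPM after LPS (log2 0.03, SE 0.0443, edgeR adjusted p = 0.636). Scaled by library size in place of TMM, this difference was -0.34 and passed (adjusted p = 9.72e-09). In hMPDM Tgfb1 was 287 and 327 CPM, a ratio of 1.14 (1.07 to 1.21) that turns to lower with library-size scaling (log2 -0.20). In RAW it was 211 and 273 CPM, a ratio of 1.29 (1.18 to 1.41). Tgfbr1, the signalling type I receptor, was 191 and 194 CPM in BMDM at 0 h and 119.7 and 122 CPM after LPS, a fall of 1.59-fold (log2 -0.67, SE 0.0438, edgeR adjusted p = 2.99e-14). Tgfbr2, the ligand-binding type II receptor, was 199.8 and 195 CPM and then 156 and 159.9 CPM, a fall of 1.25-fold (log2 -0.32, SE 0.0422, edgeR adjusted p = 1.19e-07). The Tgfbr2 call ended with a coefficient of variation of 10% (adjusted p = 0.0664). In hMPDM Tgfbr1 went from 229 to 131 CPM and Tgfbr2 from 202 to 146 CPM. In RAW they went from 134 to 94.8 CPM and from 181 to 138 CPM.

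Over the 8 members with a test, 5 fell, 1 rose and 2 did not pass in BMDM. In that comparison 62.7% of the 12461 genes tested were called, 31.1% as lower and 31.7% as higher, so a call alone sets no gene apart. In the stricter test Id2, Smad6 and Smad7 were lower and Skil higher, where 4.21% of all genes were lower and 8.27% higher. The median difference of the 8 was -0.50, beside -0.02 for all genes. An additive fit of LPS and cell type, in which BMDM weighs most, again gave 5 lower, 1 higher and 2 not passed, where 24.2% of all genes were lower and 25.0% higher. Smad6 exceeded 2-fold there (adjusted p = 0.0334), as 1.24% of all genes did downward. No member did so with DESeq2, with the replicate number as a block, without hMPDM or without any 1 of the 4 BMDM libraries. The additive fit uses the BMDM libraries too and is no independent evidence. In it Smad7 fell by 1.85 (SE 0.371, edgeR adjusted p = 0.00637), Smad6 by 1.68 (SE 0.207, adjusted p = 0.00103) and Id2 by 0.92 (SE 0.176, adjusted p = 0.00525), and Skil rose by 1.19 (SE 0.144, adjusted p = 0.00100). By the ratio of single libraries with a prior count of 2, in hMPDM 2 of the 8 (Smad6 and Smad7) were at least 2-fold lower and Skil at least 2-fold higher, where 9.76% and 11.2% of all genes were. Id3 fell just short of the limit (log2 -0.996). With the BMDM share taken out it stood at -1.40, but the library size was left unchanged there, which by itself lowers the hMPDM ratios. In the same setting Skil went from 1.70 to 1.54 and Tgfb1 from 0.19 to 0.050. In RAW none of the 8 reached a 2-fold ratio in either direction, where 10.3% of all genes did.

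**Figure D2:**
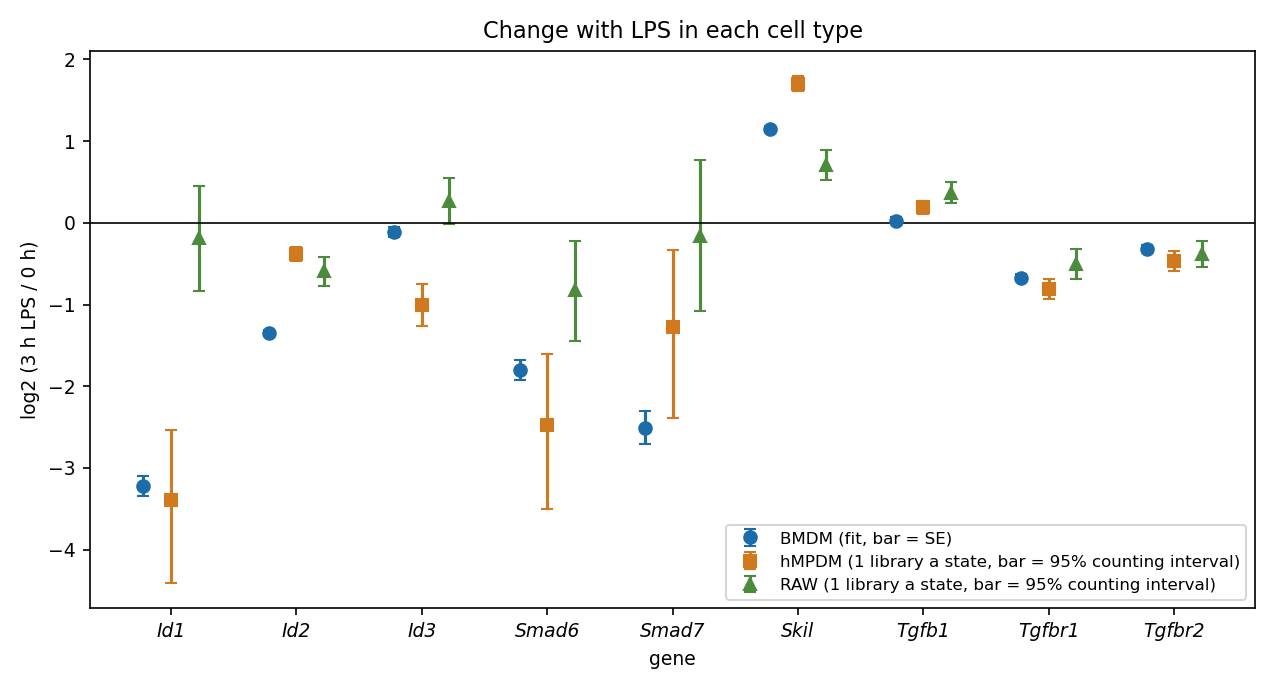
Log2 ratio of 3 h LPS to 0 h for each gene; circles are BMDM with the SE of the fit (n = 2 per state), squares hMPDM and triangles RAW, each 1 library per state with the exact 95% counting interval. Id1 lies near -3 in BMDM and hMPDM and near 0 in RAW, and the RAW interval of Smad7 spans 0 while BMDM stands at -2.51.

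Whether the cell types responded alike was tested as the difference between responses. Of the 8 tested members, Smad7 differed most between RAW and BMDM. The Smad7 response was higher in RAW by 2.35 (log2, SE 0.509, edgeR adjusted p = 0.000719), and by more than 2-fold in the test against that size (adjusted p = 0.0366). That stricter call ended without BMDM LPS replicate 1 and with a coefficient of variation of 10%, and DESeq2 gave Smad7 no adjusted p. The Id2 response was higher in RAW by 0.76 (SE 0.106, adjusted p = 1.44e-06), that of Tgfb1 by 0.34 (SE 0.0970, adjusted p = 0.00890) and that of Smad6 by 0.97 (SE 0.355, adjusted p = 0.0470). The Skil response was lower in RAW by 0.45 (log2 -0.45, SE 0.106, adjusted p = 0.00172). Of all genes 10.0% were higher and 12.7% lower in this comparison (0.891% higher in the stricter test), and of the 8 tested members 4 were higher and 1 lower. The call for Smad6 ended under 4 of 9 alternatives, that for Tgfb1 under 3 and that for Skil under 2; among them are the fits without BMDM unstimulated replicate 2 (Smad6, adjusted p = 0.0606; Tgfb1, 0.0508) and without BMDM LPS replicate 2 (Smad6, 0.128). For Id1 the difference between these responses was 3.03 (SE 0.374), given without a test.

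hMPDM and BMDM differed in the response of Id2, Id3 and Skil. The Id2 response was higher in hMPDM by 0.97 (log2, SE 0.0713, edgeR adjusted p = 3.07e-11), which is a smaller drop. The Id3 response was lower by 0.89 (log2 -0.89, SE 0.154, adjusted p = 0.000165), and the Skil response was higher by 0.55 (SE 0.0730, adjusted p = 3.00e-06). Of the 8 tested members 2 were higher and 1 lower, where 3.96% and 3.89% of all genes were. The Id3 call ended with DESeq2 (adjusted p = 0.0526) and, like that for Skil, with a coefficient of variation of 10%. For Smad7 (1.23, SE 0.586, adjusted p = 0.261) and Smad6 (-0.67, SE 0.467, adjusted p = 0.515) no difference was detectable at 10 and 11 counts in the hMPDM LPS library. The RAW and hMPDM comparisons share the BMDM libraries.

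At 0 h most members were lower outside BMDM. Of the 8 tested, 7 were lower in RAW, none was higher and Tgfbr2 did not pass, where 31.3% of all genes were lower and 27.1% higher. Id2 was 4.91-fold lower in RAW (log2 -2.30, SE 0.0644, edgeR adjusted p = 1.36e-22) and exceeded 2-fold in the stricter test. Id3, Smad6, Smad7 and Skil were between 1.70-fold and 1.99-fold lower in RAW, Tgfbr1 1.43-fold and Tgfb1 1.29-fold. With DESeq2 the RAW calls for Smad6 (adjusted p = 0.115) and Smad7 (0.253) ended, and with a coefficient of variation of 10% that for Tgfb1 did (0.107). Library-size scaling moves the median of all genes in this comparison by 0.20. In hMPDM 5 of the 8 were lower and 1 higher, where 19.2% and 19.0% of all genes were. Smad7 (2.07-fold), Smad6 (2.02-fold), Id2 (1.74-fold), Skil (1.44-fold) and Id3 (1.25-fold) were the lower ones. Tgfbr1 was 1.19-fold higher (edgeR adjusted p = 5.20e-05), and Tgfb1 and Tgfbr2 did not pass. With DESeq2, Id2 and Skil were the hMPDM calls that remained among the 8.

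After LPS the pattern between cell types was another. In RAW, Smad7 was 2.56-fold higher than in BMDM (log2 1.35, SE 0.406, edgeR adjusted p = 0.00446; 0.0639 with DESeq2). Id2 was 2.90-fold lower (log2 -1.53, SE 0.0725, adjusted p = 1.65e-17) and Skil 2.42-fold lower (log2 -1.27, SE 0.0622, adjusted p = 3.81e-17). Both exceeded 2-fold in the stricter test, as 14.1% of all genes did downward. With library-size scaling 0 members did so, and with DESeq2 or with a coefficient of variation of 10% only 1 did. In all, 5 of the 8 were lower and 1 higher, where 36.4% and 29.8% of all genes were. Id3, Tgfbr1 and Tgfbr2 were also lower in RAW, by 0.39, 0.35 and 0.19 below BMDM on the log2 scale (-0.39, -0.35 and -0.19), and all 3 differences turn positive with library-size scaling, which moves the median of all genes by 0.47. Without BMDM LPS replicate 2 the calls for Id3 (adjusted p = 0.0788) and Tgfbr2 (0.0592) ended. In hMPDM after LPS, Smad6 was 3.22-fold lower than in BMDM (log2 -1.69, SE 0.407, edgeR adjusted p = 0.00205) and Id3 2.32-fold lower (log2 -1.21, SE 0.132, adjusted p = 1.55e-08), where 12.5% of all genes were lower and 12.5% higher. Id2 (log2 0.17, adjusted p = 0.0212) and Tgfb1 (log2 0.24, adjusted p = 0.00476) were slightly higher there, and both calls ended with DESeq2. The Id2 call ended also without BMDM LPS replicate 2 (adjusted p = 0.0882) and with the replicate number as a block (adjusted p = 0.0613). Skil was 388 CPM in hMPDM and 388 and 376 CPM in BMDM, a difference of 0.03 (SE 0.0520).

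**Figure D3:**
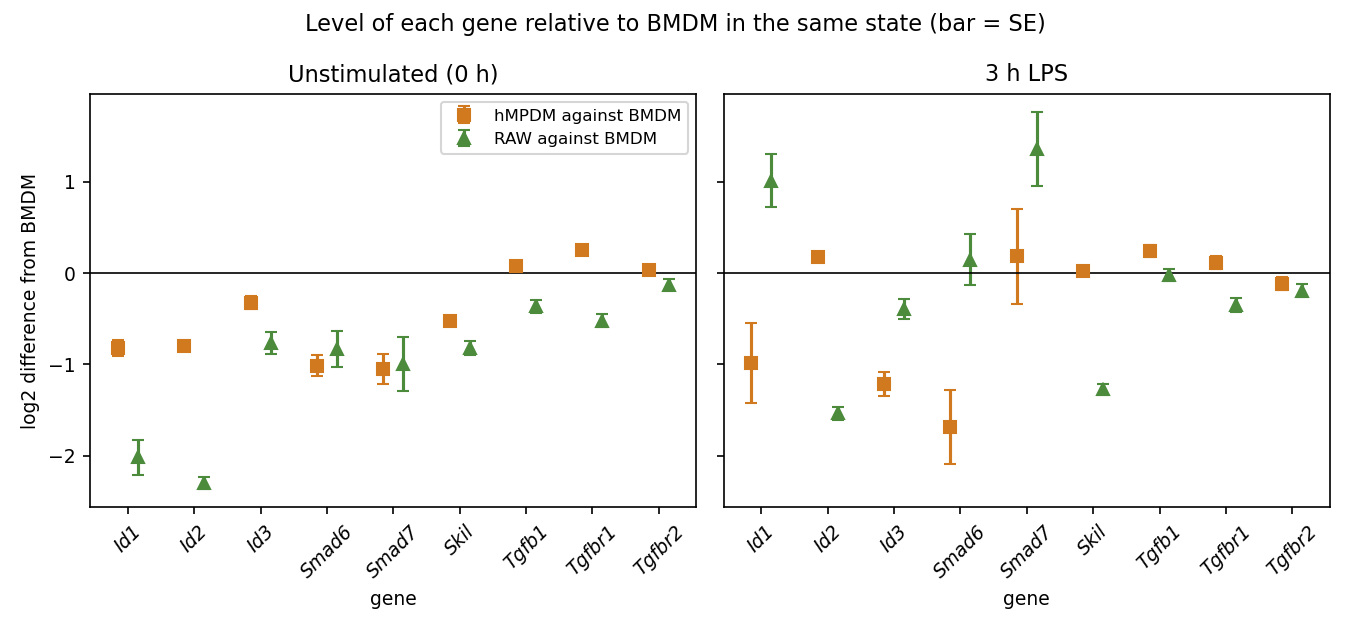
Log2 difference of hMPDM (squares) and RAW (triangles) from BMDM at 0 h (left) and after 3 h LPS (right), with the SE of the fit. At 0 h the ID genes, Smad6, Smad7 and Skil lie below BMDM in both; after LPS Id1 and Smad7 lie above BMDM in RAW, at 1.01 and 1.35.

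Per kilobase of exon, which allows genes to be compared, Id2 and Tgfb1 were the most abundant members and Smad7 the least in every group. In BMDM at 0 h Id2 stood at 592 ± 16.1 and Tgfb1 at 106 ± 8.37 CPM per kb (SD, n = 2). Id3 (44.6 ± 2.15), Tgfbr2 (41.3 ± 0.706) and Id1 (38.1 ± 3.85) followed, and these neighbours lay within about their spread of each other. Tgfbr1 (29.5 ± 0.364), Skil (17.7 ± 0.209), Smad6 (8.35 ± 1.05) and Smad7 (2.41 ± 0.212) came last, each apart from the next. After LPS Id1 moved from the 5th to the 7th place in BMDM, at 4.07 ± 0.224 CPM per kb, and Skil from the 7th to the 4th, at 39.4 ± 0.873. In RAW after LPS Tgfb1 (107 CPM per kb) stood above Id2 (80.0 CPM per kb), the reverse of the order in every other group.

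The 5 genes whose log2 level followed that of Id1 most closely over the 8 libraries were Emsy, Osgin1, Cdan1, Rmi1 and Zbtb2, with Pearson r from 0.982 to 0.993, among 9685 genes of at least 5 CPM. The libraries share cell types and states, so this is a description of a shape. Osgin1 had the largest range among them, at 86.9 and 84.2 CPM in BMDM at 0 h, 13.8 and 17.0 CPM after LPS, 43.3 and 8.07 CPM in hMPDM, and 28.0 and 22.0 CPM in RAW. Emsy, with the highest r, moved only from 29.4 and 28.7 to 19.9 and 20.1 CPM in BMDM. Smad6 had r = 0.921 with Id1 (rank 155), Smad7 0.920 (159), Tgfbr2 0.830 (546), Tgfbr1 0.740 (1014), Id3 0.614 (1577) and Id2 0.541 (1935). Tgfb1 had r = -0.28 and Skil r = -0.69. Many other genes thus followed Id1 more closely than the members did.

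The wider pathway did not move in one direction in BMDM. Of 80 listed genes for ligands, latency, receptors, SMADs, co-repressors, antagonists, targets, and ID partners or related factors, 56 could be tested. Of these 22 rose, 18 fell and 16 did not pass, and 11 rose and 6 fell by more than 2-fold. Over all genes 31.7% were higher and 31.1% lower, and 8.27% and 4.21% by more than 2-fold. The median difference was -0.004, beside -0.02 for all genes. Among the genes that set TGF-beta free from its latent complex, Itgb8, an integrin subunit that activates it, went from 0.0598 and 0.0484 CPM to 5.59 and 5.38 CPM. It had 2 counts at 0 h in all, and the ratio was 102 (27.5 to 852). Its partner Itgav rose by 1.46 and the processing protease gene Furin by 1.40, while Thbs1, which encodes the activator thrombospondin 1, fell from 1828 and 2018 to 709 and 719.7 CPM (log2 -1.43, SE 0.0397, edgeR adjusted p = 1.40e-23). Lrrc32, an anchor of latent TGF-beta, reached 1.21 and 1.19 CPM from 3 counts in all.

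Among ligands, Inhba, which encodes the activin A subunit, had 1 count at 0 h and stood at 3.48 and 1.27 CPM with LPS. Its count ratio was 75.7 (12.8 to 3064). Bmp1, a metalloprotease rather than a BMP in spite of its name, had 3 counts at 0 h and 4.99 and 5.61 CPM after LPS. No receptor exceeded 2-fold in the stricter test, and Eng, a co-receptor, rose by 0.85 (edgeR adjusted p = 1.04e-14). Of 8 listed antagonists only 1, Fstl3, could be tested, and it did not pass (log2 -1.34, edgeR adjusted p = 0.0546). Of the receptor SMADs, Smad9 had 56 counts at 0 h and 1 after LPS, a ratio of 28.9 (4.97 to 1160.4), and Smad3 was 35.4 and 35.4 CPM and then 19.8 and 17.6 CPM (log2 -0.94, edgeR adjusted p = 4.76e-11). Ski, the closest relative of Skil, moved the other way, from 236 and 247 to 76.5 and 69.7 CPM (log2 -1.74, SE 0.0502, edgeR adjusted p = 3.67e-23).

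Of 8 tested target genes 5 rose and 2 fell, beside the 31.7% and 31.1% of all genes. The cell cycle inhibitor genes Cdkn1a (2.55) and Cdkn2b (2.36) and the AP-1 gene Junb (2.65) rose, and Klf10, a TGF-beta-induced repressor gene, fell by 0.93. Of the 6 tested genes listed as ID partners or related factors, 1 rose and 5 fell, where 31.7% of all genes were higher and 31.1% lower. The E protein genes Tcf3 (log2 -0.48) and Tcf12 (-0.53) fell and Tcf4 rose by 1.43. Lyl1 went from 72.9 and 78.5 to 12.8 and 14.2 CPM (log2 -2.47), Cbfa2t3 was lower by 2.68 (log2 -2.68) and Tal1 fell by 0.75. The calls for Lrrc32, Smad9 and Cdkn2b ended with DESeq2 (adjusted p = 0.111, 0.0892 and 0.105). These lists were set down with earlier results of the same libraries known.

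**Figure D4:**
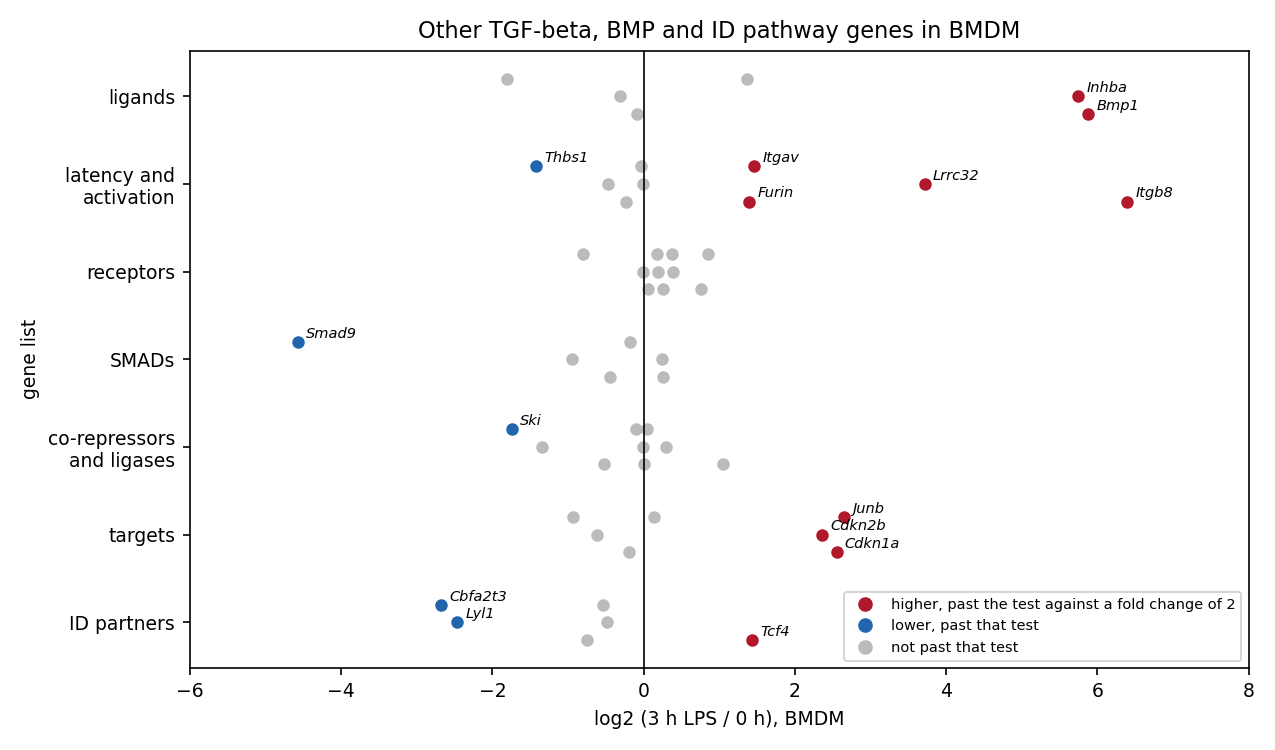
Log2 ratio of 3 h LPS to 0 h in BMDM for tested pathway genes, by list (Fstl3, the antagonist tested, and genes not reported here are not drawn); named points exceeded 2-fold in the stricter test, red for higher and blue for lower. Points lie on both sides of 0, from Smad9 at -4.57 to Itgb8 at 6.39.

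At 0 h several genes of TGF-beta handling were far lower in RAW than in BMDM. In RAW, 12 of the 56 were lower and 2 higher than in BMDM by more than 2-fold, where 8.91% and 5.72% of all genes were. Thbs1 was 1828 and 2018 CPM in BMDM and 13.3 CPM in RAW (log2 -7.17, SE 0.111, edgeR adjusted p = 8.90e-29). Tgfbi, a TGF-beta-induced matrix gene, was 121 and 121 CPM in BMDM and 1.31 CPM in RAW. Ltbp3, a latent TGF-beta binding protein gene, had 2 counts in RAW, 98.1-fold lower (27.1 to 811). Gdf3, a ligand gene, had none in RAW, at least 20.3-fold lower against a floor of 3 counts, and Nedd4l, a ubiquitin ligase gene, stood at 4.71 CPM against 88.5 and 90.5 CPM. The BMP type I receptor gene Bmpr1a was the opposite, at 64.6 CPM in RAW and 1.61 and 1.02 CPM in BMDM (log2 5.64, SE 0.190, edgeR adjusted p = 1.07e-20), and 61.8 CPM in RAW after LPS. Pmepa1, a feedback gene of TGF-beta signalling, was 13.1 CPM in RAW and 3.83 and 4.07 CPM in BMDM. In hMPDM, 7 of the 56 were lower by more than 2-fold, where 2.76% of all genes were, among them Thbs1 (807 CPM), Ltbp3 (17.8 CPM) and Gdf3 (2 counts, 132-fold lower, 36.5 to 1096).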

How the data were processed

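Per the file headers, the authors deposited read counts for each gene without normalization, laid out as featureCounts writes them, beside a gene length in bases. Per the submitters' processing notes the build was mm10 and the tools included STAR, cutadapt, featureCounts, bedtools and SAMtools, in no stated order or version. The strand setting of the counting is not given in the sources used here, and no gene annotated in GENCODE M21 overlaps a member. Of 10 value columns, 8 matched a sample. The other 2, headed as a further hMPDM library at each time, matched no sample label and were not used. Of 43346 identifiers, 42462 matched a symbol.

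Counts were analysed in R 4.3.3 with edgeR 4.0.16: filterByExpr, which kept 12461 genes and all 9 members, TMM scaling, and a quasi-likelihood fit on all 8 libraries with 1 coefficient per group (2 residual degrees of freedom, both from BMDM; coefficient of variation 2.27%). The additive fit of LPS and cell type had 4 residual degrees of freedom (12.3%). Adjusted p-values are Benjamini-Hochberg over all tested genes, called under 0.05. A stricter call tested against a fold change of 2 (glmTreat). The responses of hMPDM and RAW set 1 library against 1 library and have ratios with exact (Clopper-Pearson) 95% intervals of the counts and no test. A count of 0 allows up to 3 counts, or 0.963 CPM in the shallowest library by its raw total, without the TMM scaling used for the levels. DESeq2 1.42.0, library-size scaling, no filter, a coefficient of variation of 10%, a replicate block, other prior counts, the BMDM libraries alone, leaving out each BMDM library or another cell type, and taking the BMDM share out of the hMPDM LPS library were the alternatives. Same-numbered BMDM libraries did not deviate together (correlation -0.035 across genes), so the numbers were not taken as pairs. Id1 was left out of all tests and member counts, although a test of it between cell types had been planned, since the same libraries chose the set. Members, lists, tests and alternatives were chosen with earlier results of these data known. Named pathway genes are mainly those that exceeded 2-fold in the stricter test. The 5 genes most like Id1 have the highest Pearson r on log2 CPM with a prior count of 2. Smad3, Eng, Klf10, Tcf3, Tcf12 and Tal1 were added after their values were seen. A few listed pathway genes are counted but not reported here by name.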

Additional observations from a re-analysis of the deposited data

Results flagged for a closer look

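In 8 cases the test of the difference between the LPS responses of 2 cell types passed for a member (edgeR quasi-likelihood test). Against BMDM, the response of hMPDM was higher for Id2 by 0.97 and for Skil by 0.55 and lower for Id3 (-0.89), all on the log2 scale. Against BMDM, the response of RAW was higher for Smad7 by 2.35, for Smad6 by 0.97, for Id2 by 0.76 and for Tgfb1 by 0.34, and lower for Skil (-0.45). hMPDM and RAW had 1 library per state, and both comparisons share the 4 BMDM libraries. The level at 0 h differed too: at 0 h Id2, Skil, Smad6, Smad7 and Tgfb1 were lower in RAW than in BMDM, and Id2, Id3 and Skil were lower in hMPDM. With the 10.8% share of BMDM LPS counts taken out of the hMPDM LPS library, the calls for Id2, Id3 and Skil were kept (0.99, -1.14 and 0.55).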

How the results depend on the processing

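Of the results recomputed, 1025 single-gene values kept direction and call under an alternative, 41 calls ended, 9 were gained, 18 untested values moved and 16 turned sign; counts of genes stayed within 1.5 times in 457 cases and moved in 75. The causes were not tested. Low counts limit Smad7 and Smad6 in RAW and in the hMPDM LPS library.

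With DESeq2, all genes called went from 7815 to 4159 for the BMDM response (past 2-fold, 1555 to 881), 4766 to 1365 for hMPDM at 0 h (509 to 155), 7282 to 4463 for RAW at 0 h (1823 to 808), 3121 to 1246 for hMPDM after LPS (215 to 56), past 2-fold 2777 to 1366 for RAW after LPS, 979 to 264 for the hMPDM response difference (31 to 14) and 2832 to 1374 for the RAW one (478 to 259). Members higher went from 1 to 0 (hMPDM, 0 h), 2 to 0 (hMPDM, LPS), 1 to 0 (RAW, LPS) and 4 to 1 (RAW response difference), and members lower from 5 to 2 (hMPDM, 0 h), 5 to 3 (RAW, LPS) and 1 to 0 (hMPDM response difference). Past 2-fold, members higher went from 1 to 0 in the BMDM response and the RAW response difference. Members lower went from 1 to 0 past 2-fold in the additive fit and from 2 to 1 in RAW after LPS. In the RAW response difference DESeq2 gave Smad7 no adjusted p, and it is counted among the lost calls. Pathway genes past 2-fold went from 7 to 2 lower in hMPDM, and from 12 to 7 lower and 2 to 1 higher in RAW, at 0 h. Tgfb1 in RAW after LPS turned to 0.015.

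With a coefficient of variation of 10%, all genes called were 5161 (BMDM response), 1714 (hMPDM, 0 h), 1235 (hMPDM, LPS), 123 (hMPDM response difference, past 2-fold 19) and 1211 (RAW response difference), and 1224 past 2-fold in the additive fit. Members higher were 0 in hMPDM at 0 h and after LPS, 1 in the hMPDM response difference and 2 in the RAW one, and past 2-fold 0 in the BMDM response and the RAW response difference. Members lower were 2 in RAW after LPS (past 2-fold 1), 0 in both response differences, and 2 past 2-fold in the additive fit.

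With library-size scaling, Tgfb1 turned to -0.34 in the BMDM response, -0.15 in the additive fit and -0.20 in hMPDM, and in RAW against BMDM Tgfbr2 turned to 0.073 at 0 h, and after LPS Id3 to 0.075, Tgfb1 to 0.45, Tgfbr1 to 0.12 and Tgfbr2 to 0.28. The RAW response difference of Tgfbr2 turned to 0.20 and that of members lower went to 0. After LPS in RAW, 3 members were higher (past 2-fold 1) and 2 lower (past 2-fold 0). In the BMDM response 0 members were past 2-fold higher and 10 pathway genes past 2-fold lower, and 4 members were at least 2-fold lower in hMPDM.

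In the additive fit, members past 2-fold lower were 2 with no filter and without RAW (then 1 higher), and 0 without hMPDM; genes past 2-fold were 1485 without RAW and 470 without hMPDM. With the BMDM share taken out, 1 member and 355 genes were past 2-fold in hMPDM after LPS. With the replicate number as a block, 5 of 164 results changed: members past 2-fold lower in the additive fit were 0, members higher in hMPDM after LPS were 1, with Id2 the lost call, the untested Id1 difference of hMPDM at 0 h was -0.71, and Tgfb1 in RAW after LPS turned to 0.029.

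Leaving out each BMDM library in turn, members past 2-fold lower in the additive fit were 0 to 0 and genes past 2-fold 373 to 425. Members higher were 1 to 2 in hMPDM at 0 h and after LPS, members lower 3 to 5 in RAW after LPS, and members past 2-fold higher 0 to 1 in the RAW response difference. Values near 0 ran across it: Tgfb1 from -0.053 to 0.11 (BMDM response) and from -0.0015 to 0.16 (hMPDM, 0 h), lowest without BMDM unstimulated replicate 1; Smad7 from -0.025 to 0.68 (hMPDM, LPS), lowest without BMDM LPS replicate 1; Skil from -0.0012 to 0.042 (hMPDM, LPS) and Smad6 from -0.034 to 0.24 (RAW, LPS), lowest without BMDM LPS replicate 2.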
